A study of Mus musculus with 18 samples.

Results

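RNA sequencing of mouse Th17 cells that lack ATP citrate lyase (ACLY) is described here for cultures that received no acetate. The comparison takes 3 libraries of ACLY-deficient cells (ACLYKO) and 3 of wild-type cells (WT), chosen by their labels from 18 libraries in all. The ACLYKO cells carried the genotype Acly-fl/fl Cd4-cre, in which a floxed Acly gene is removed by a recombinase driven from the Cd4 promoter. This promoter is active from the thymic stage at which T cells bear both CD4 and CD8, so the recombinase does not act in T helper cells alone. The labels call the WT cells wild type and do not say whether they carried the recombinase. They give the background as C57BL/6 for all WT libraries and as C57BL/8, C57BL/10 and C57BL/12 for ACLYKO replicates 1, 2 and 3, so that the stated background and the genotype cannot be told apart. For the ACLYKO libraries with acetate they give C57BL/9, C57BL/11 and C57BL/6 for replicates 1, 2 and 3. Age, sex and number of mice are not given.

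Naive CD4+ T cells had been stimulated through CD3 and CD28 with Th17 cytokines for 48 hours and kept for another 24 hours without acetate. PMA and ionomycin, together with the secretion blockers brefeldin A and monensin, were added for the last 5 hours. ACLYKO and WT cells that received acetate for those 24 hours (3 libraries each) are used only where the effect of ACLY loss is set beside that in acetate. The labels state the acetate dose as 20 mM in one place and 10 mM in another. Separate mice are not stated for the replicates, and the p-values therefore cover only the variation seen between these libraries, which can be technical.

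ACLY cleaves citrate that has left the mitochondrion and so supplies the acetyl-CoA from which the cytosol builds fatty acids and sterols and from which nuclear enzymes acetylate histones. ACSS2 makes the same product from acetate. Th17 cells are helper T cells that secrete interleukin-17A and interleukin-17F. They rely on fatty acid synthesis more than regulatory T cells do.

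Levels are in TPM, the transcript abundance scaled to a constant total per library, as the authors calculated it. A change is the ACLYKO minus the WT mean of log2(TPM + 1), followed by its standard error, and this scale understates the change of genes with low levels. A gene is called when its Benjamini-Hochberg adjusted p from limma, a linear model fitted over 14229 genes and 18 libraries, is under 0.05, and higher, lower, rose and fell refer to such genes. The 6 libraries held 19.3 to 28.8 M reads assigned to genes (median 21.9 M). ACLYKO replicate 1 stood apart from the other 5. The first principal component, with 67.0% of the variance, set it against them. Its correlation over genes with the other ACLYKO libraries was 0.874 and 0.893, while those 2 correlated at 0.990 with each other and the WT libraries at 0.963 to 0.993. Genes for tRNA took 2.41% of its TPM, against 0.121% and 0.0625% in ACLYKO replicates 2 and 3 and at most 0.0674% in WT. It had 12137 genes at 1 TPM or more, against 12987 and 12984 in the other ACLYKO libraries and 12465 to 12698 in WT. Counts and medians over gene lists are therefore given with and without it, and calls of single genes that depend on it are named as such.

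**Figure D1:**
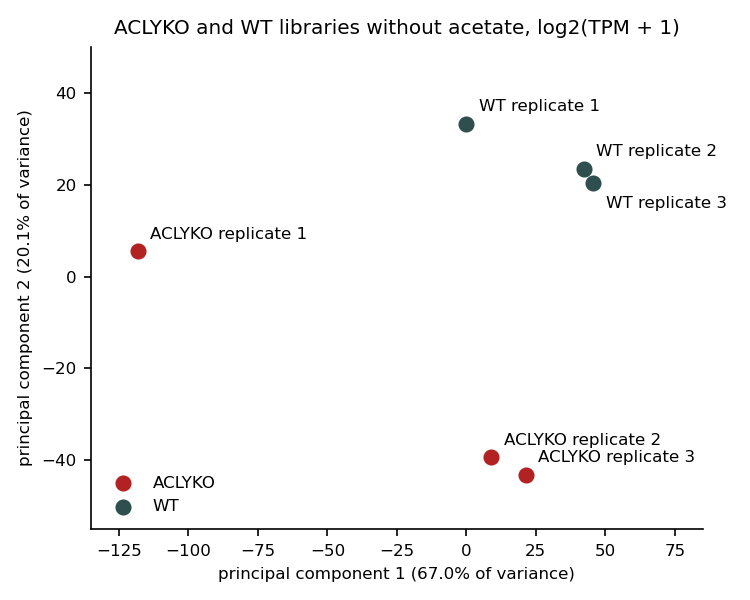
Principal component scores of the 3 ACLYKO (red) and 3 WT (dark) libraries without acetate, from log2(TPM + 1) of the tested genes, with the share of variance on each axis. ACLYKO replicate 1 lies alone on the first axis (67.0% of variance), and the second (20.1%) has the ACLYKO replicates 2 and 3 below and the WT libraries above.

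Acly itself was read first (GeneID 104112, chromosome 11, 100476352 to 100528000, minus strand, GRCm38.p6). It stood at 7.01, 14.4 and 12.6 TPM in ACLYKO, against 400.3, 395 and 392 TPM in WT. The groups were far apart (log2 change -5.06 ± 0.22, limma adjusted p = 8.66e-09), and the remaining level in ACLYKO is a value over the whole gene, since reads over the floxed exons were not separated. ACLYKO replicate 1, which stood apart in other respects, had the lowest Acly level of all.

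The ACLYKO and WT transcriptomes differed broadly. In all 2715 of 14229 genes (19.1%) were called, 1807 of them higher (12.7%) and 908 lower (6.38%). Without ACLYKO replicate 1 the counts were 2710 higher (19.0%) and 896 lower (6.3%), and 2315 genes (16.3%) were called in the same direction by both fits. The excess of higher genes depends on scaling: they made up 66.6% of calls on TPM as deposited, 54.8% with median-ratio scaling and 53.7% with quantile normalization. A fit of these 6 libraries alone, which then supply the whole estimate of the spread, called 342 genes. With the replicate number as a block it called 0 (3269 at an unadjusted p under 0.05), while the same block in the fit of all 18 libraries called 3292. Leaving out WT replicate 2 or 3 gave 1795 or 1778 calls. The median log2 change over all genes was 0.03, and 0.12 without ACLYKO replicate 1. The medians of gene lists below are to be read against these values and their counts against the shares just given. The 3 ACLYKO libraries lay wholly above the 3 WT libraries for 16.1% of all tested genes and wholly below them for 10.8%. Called genes were spread over the genome, with 16.4% to 23.8% of tested genes called on each chromosome, and 15 higher and 6 lower of 91 tested genes (23.1%) lay within 2 Mb of Acly.

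The Th17 programme was changed in cytokine genes, in receptor genes and in several transcription factor genes. Il17a, the hallmark cytokine gene, stood at 38.2, 117 and 156 TPM in ACLYKO, against 613, 599 and 703 TPM in WT. The groups did not overlap, and ACLYKO replicate 1 was the lowest. Its change was -2.83 ± 0.39 (limma adjusted p = 0.00017) and -2.23 without that replicate. The neighbouring gene Il17f stood at 425, 195 and 249 TPM in ACLYKO, against 867, 669.9 and 749.8 TPM in WT. Here ACLYKO replicate 1 was the highest of its group, in the opposite order to Il17a, and the change was -1.46 ± 0.22 (limma adjusted p = 0.000361). Il23r, which encodes the receptor chain through which interleukin-23 sustains Th17 cells, had the smallest adjusted p of the Th17 list, at 1.69, 1.65 and 1.75 TPM in ACLYKO, against 11.6, 11.6 and 13.4 TPM in WT. The ACLYKO values lay close together and far below every WT value (log2 change -2.29 ± 0.15, limma adjusted p = 1.67e-07). Maf, which encodes the transcription factor c-MAF, fell as well, at 13.7, 7.83 and 8.32 TPM in ACLYKO, against 45.5, 38.4 and 34.3 TPM in WT (log2 change -1.91 ± 0.22, limma adjusted p = 3.73e-05).

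Further receptor genes of the lineage were lower. Ccr6, the receptor for the chemokine CCL20, stood at 16.5, 26.5 and 20.8 TPM in ACLYKO, against 41.2, 56.8 and 45.8 TPM in WT (log2 change -1.15 ± 0.18, limma adjusted p = 0.00044). Il6ra, the ligand-binding chain for interleukin-6, fell by less, at 6.44, 16.2 and 14.5 TPM in ACLYKO, against 25.4, 17.9 and 20.1 TPM in WT (log2 change -0.80, limma adjusted p = 0.0327, and 0.0531 without ACLYKO replicate 1). The 3 members called higher were Cd5l, Ahr and Bhlhe40. Cd5l, which encodes a lipid-binding regulator expressed in non-pathogenic Th17 cells, stood at 66.0, 111 and 101 TPM in ACLYKO, against 15.2, 22.4 and 24.7 TPM in WT (log2 change 2.10 ± 0.27, limma adjusted p = 8.32e-05). Ahr, the aryl hydrocarbon receptor, was at 8.91, 8.18 and 7.33 TPM in ACLYKO, against 3.07, 3.11 and 2.90 TPM in WT (log2 change 1.18 ± 0.17). Bhlhe40, a transcription factor that restrains Il10 in T cells, rose by 0.56 on the log2 scale (limma adjusted p = 0.0174). In total the Th17 list had 3 rises and 6 falls among 23 tested genes, with a median log2 change of -0.03, and 3 higher and 5 lower without ACLYKO replicate 1 (median -0.17).

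Other genes of the lineage were not called. The transcription factor genes Rora, Stat3, Batf and Irf4 had limma adjusted p-values of 0.946, 0.242, 0.0792 and 0.47. Il21 stood at 950.0, 1148 and 1034 TPM in ACLYKO, against 1705, 993 and 815 TPM in WT (limma adjusted p = 0.78). Il22 was low in both groups, at 0, 0.25 and 0.466 TPM in ACLYKO, against 0.365, 1.06 and 1.82 TPM in WT (limma adjusted p = 0.178). Foxp3, which marks regulatory T cells, was under 1 TPM in all 6 libraries. A p-value over the threshold does not show that these genes were equal.

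**Figure D2:**
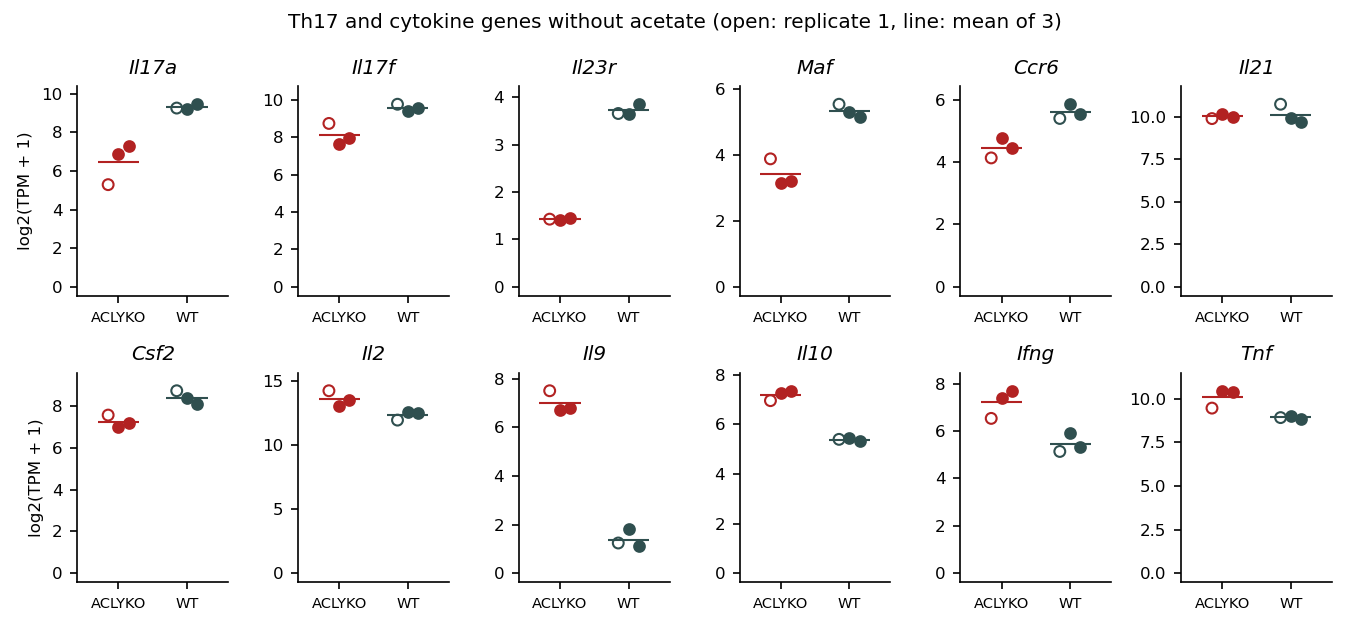
Levels of 12 Th17 and cytokine genes as log2(TPM + 1) in the 3 ACLYKO (red, left) and 3 WT (dark, right) libraries without acetate, where open circles are replicate 1 and lines are group means. The groups do not overlap in any of these genes except Il21, and replicate 1 of ACLYKO is the lowest for Il17a and the highest of its group for Il17f, Il2 and Il9.

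Of 30 tested members of the cytokine list, which includes Il17a and Il17f, 11 were higher and 6 lower (median log2 change 0.30), and 13 and 6 without ACLYKO replicate 1 (median 0.44). Il9, the signature gene of Th9 cells, was near the lower limit in WT and abundant in ACLYKO (GeneID 16198, chromosome 13, 56479277 to 56482257, minus strand). It stood at 181, 104 and 111 TPM in ACLYKO, against 1.37, 2.49 and 1.17 TPM in WT. Its log2 change of 5.62 ± 0.25 was the largest of all genes that passed the rule for naming, and it was 5.37 without ACLYKO replicate 1. Il10, an anti-inflammatory cytokine gene, had 123, 150.3 and 162 TPM in ACLYKO, against 41.0, 42.1 and 39.0 TPM in WT (log2 change 1.80 ± 0.25, limma adjusted p = 0.000188). Areg, a growth factor of the EGF family, rose too, with 25.0, 9.93 and 10.8 TPM in ACLYKO, against 2.78, 1.05 and 2.22 TPM in WT (log2 change 2.36 ± 0.29).

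Effector cytokines moved in both directions. Il2, the T cell growth factor, stood at 19694, 8466 and 11709 TPM in ACLYKO, against 4017, 6356 and 5861 TPM in WT. The lowest ACLYKO library was above the highest WT library (log2 change 1.24 ± 0.32, limma adjusted p = 0.0133, and adjusted p = 0.0382 without ACLYKO replicate 1). Tnf was at 704, 1404 and 1350.2 TPM in ACLYKO, against 483, 523 and 458 TPM in WT (log2 change 1.18 ± 0.24, limma adjusted p = 0.0033). Ifng, the Th1 cytokine gene, had 91.5, 166 and 206 TPM in ACLYKO, against 34.2, 59.5 and 38.9 TPM in WT, with the ACLYKO replicate 1 nearest to WT (log2 change 1.75 ± 0.37, limma adjusted p = 0.00372). Among the falls, Csf2, which encodes GM-CSF and lies next to Il3 on chromosome 11, had 189, 127 and 145 TPM in ACLYKO, against 424, 334 and 270.5 TPM in WT (limma adjusted p = 0.00943). Il3 had 9.17, 12.6 and 14.5 TPM in ACLYKO, against 55.8, 99.1 and 90.8 TPM in WT (log2 change -2.64 ± 0.38, limma adjusted p = 0.00023). Lif and the Th2 cytokine gene Il13 fell by 1.14 and 1.26 on the log2 scale (limma adjusted p = 0.00086 and 0.0056), whereas Il5, from the same Th2 locus as Il13, rose at a low level to 1.85, 1.34 and 1.80 TPM in ACLYKO, against 0.407, 0.355 and 0.232 TPM in WT. The TNF-family ligand genes Cd40lg and Tnfsf8 rose by 1.00 and 1.15 (limma adjusted p = 0.00046 and 0.00296).

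Genes of cytotoxic and Th1 cells rose in part. Of 23 tested members of that list 9 were higher and 2 lower (median log2 change 0.33), and 12 and 3 without ACLYKO replicate 1 (median 0.92). Both chains of the interleukin-18 receptor were higher, Il18r1 at 14.3, 9.46 and 7.64 TPM in ACLYKO, against 1.45, 1.53 and 2.16 TPM in WT and Il18rap at 12.4, 9.60 and 9.14 TPM in ACLYKO, against 1.75, 2.16 and 2.43 TPM in WT (log2 changes 2.05 and 1.86, limma adjusted p = 1.35e-05 and 1.79e-05). The granzyme gene Gzmc had 48.3, 65.5 and 65.4 TPM in ACLYKO, against 11.8, 7.94 and 5.20 TPM in WT (log2 change 2.75 ± 0.38, limma adjusted p = 0.000163). It belongs to a cluster of similar granzyme genes among which the counting could split reads, and Gzmb, Gzmd and Gzmf were called higher too. The members called lower were Il12rb2, a chain of the interleukin-12 receptor, and Stat4, a signal transducer of that receptor. Il12rb2 stood at 3.24, 1.94 and 2.36 TPM in ACLYKO, against 17.1, 8.65 and 8.42 TPM in WT and Stat4 at 7.63, 12.3 and 9.28 TPM in ACLYKO, against 26.9, 19.5 and 21.9 TPM in WT (log2 changes -1.77 ± 0.28 and -1.16 ± 0.23, limma adjusted p = 0.000507 and 0.00222).

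Markers of NK and gamma-delta T cells moved with these genes. Trdc, the constant segment of the gamma-delta receptor, stood at 10.5, 16.0 and 20.4 TPM in ACLYKO, against 3.39, 2.47 and 1.99 TPM in WT and Klrk1 at 4.80, 3.87 and 4.80 TPM in ACLYKO, against 1.87, 1.99 and 1.15 TPM in WT, and both were called higher (limma adjusted p = 0.000263 and 0.016). They were the only tested ones of 6 listed markers in the table. The summed level of the 6 was 16.0 to 25.8 TPM in ACLYKO and 3.90 to 5.68 TPM in WT, and Ncr1 was at 0 in every ACLYKO library. The part of such cells in these rises was not tested, and in bulk RNA more cells of a type and more RNA per cell cannot be told apart. The CD8 gene Cd8b1 was lower in ACLYKO, while Cd8a was at most 0.408 TPM throughout. Of the myeloid markers Cd68 was higher, at 4.06, 8.99 and 6.99 TPM in ACLYKO, against 1.80, 1.02 and 2.62 TPM in WT, while C1qa, C1qb and C1qc were at 0 in all 6 libraries and Lyz2 in all but ACLYKO replicate 2. Of 8 B cell markers 2 were tested and none called, the erythroid and neutrophil markers were below the test limit. The 4 marker calls were also made without ACLYKO replicate 1. Cd4 was at 184, 181 and 153 TPM in ACLYKO, against 265, 209.7 and 216 TPM in WT (limma adjusted p = 0.063, and 0.0352 without ACLYKO replicate 1).

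Receptors through which T cells are costimulated and guided were more often lower. Of 24 tested members of the list for the T cell receptor complex and costimulation, 2 were called higher and 6 lower (median log2 change -0.43), and 1 and 7 without ACLYKO replicate 1 (median -0.14). Cd28, the main costimulatory receptor, stood at 355, 457 and 393 TPM in ACLYKO and 948, 930.0 and 817 TPM in WT. Tnfrsf9, which encodes 4-1BB, had 23.3, 30.3 and 25.3 TPM in ACLYKO and 76.4, 85.5 and 83.8 TPM in WT, and Cd27 had 29.4, 21.1 and 19.7 TPM in ACLYKO and 74.7, 51.9 and 59.1 TPM in WT. Each of these 3 genes had all ACLYKO libraries below all WT libraries (log2 changes -1.17 ± 0.13, -1.61 ± 0.16 and -1.37 ± 0.20, limma adjusted p at most 0.000244). Themis, Cd247 and Cd6 fell by less, and Cd6 was not called without ACLYKO replicate 1 (limma adjusted p = 0.0517). Trat1, which encodes an adaptor that stabilizes the receptor complex, rose, with 33.6, 42.4 and 46.4 TPM in ACLYKO, against 6.65, 11.0 and 9.02 TPM in WT (log2 change 2.09 ± 0.21, limma adjusted p = 1.13e-05). The inhibitory receptor gene Ctla4, which competes with CD28 for the same ligands, was lower as well, at 409, 533 and 491 TPM in ACLYKO and 1473, 1152 and 1200.1 TPM in WT (log2 change -1.41 ± 0.15, limma adjusted p = 1.76e-05). Of 17 tested genes of the coinhibitory list 2 were higher and 1 lower, and 3 and 1 without ACLYKO replicate 1. These shares, 17.6% and 23.5%, were near the 19.1% and 25.3% of all tested genes. Cd160 and Tox, which encodes a transcription factor of exhausted T cells, were called higher (Tox not without ACLYKO replicate 1, limma adjusted p = 0.0616), and Pdcd1 was not called (limma adjusted p = 0.125, and 0.000214 without ACLYKO replicate 1).

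Chemokine and homing receptors had 1 rise and 6 falls among 24 tested genes (median log2 change -0.22), and 1 and 5 without ACLYKO replicate 1 (median -0.19). Ccr7, which directs T cells to lymph nodes, was at 14.6, 46.9 and 55.8 TPM in ACLYKO, against 133, 162 and 219 TPM in WT (log2 change -2.27 ± 0.43), and Gpr183, a receptor for oxysterols, at 1.47, 4.31 and 5.02 TPM in ACLYKO, against 10.1, 16.8 and 15.5 TPM in WT (log2 change -1.79 ± 0.30). Ch25h, which encodes an enzyme that makes the oxysterol precursor of the GPR183 ligand and is induced by interferon, was at 2.99, 8.96 and 9.03 TPM in ACLYKO, against 0, 0.0665 and 0.052 TPM in WT (log2 change 2.82 ± 0.27, limma adjusted p = 5.66e-06). Of the chemokine ligands 5 of 13 tested were higher and 3 lower, and 7 and 3 without ACLYKO replicate 1. Cxcl3, a neutrophil attractant, fell to 4.13, 11.4 and 11.9 TPM in ACLYKO, against 107, 104 and 95.3 TPM in WT (log2 change -3.46 ± 0.29, limma adjusted p = 1.99e-06). Xcl1, which attracts cross-presenting dendritic cells, and Ccl1 rose, at 162, 376 and 387 and at 15.2, 40.7 and 43.2 TPM in ACLYKO, against 79.9, 146 and 86.7 and 5.20, 8.63 and 4.36 TPM in WT.

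Interferon genes were called higher among the sensors of nucleic acid, the signalling genes and the effectors, with 1 gene called lower among the sensors and 1 among the signalling genes. Type I interferon is made when cytosolic sensors such as cGAS, MDA5 (gene Ifih1) or RIG-I detect nucleic acid. It acts through factors such as STAT2 and IRF9, which bind the interferon-stimulated response element (ISRE) in the promoters of effector genes. The core of this element, searched on both strands as GAAA, any 2 bases and GAAA, in RefSeq promoter windows (GRCm38.p6, 250 bases before to 50 after the transcript start), was present in 3.99% of 27025 genes with a window and in 3.85% of the 9360 tested ones. It was present in 13 of 29 effector genes with a window, in 6 of 8 of the p200 family and in 9 of 9 genes of the list of guanylate-binding proteins and immunity-related GTPases, of which 10, 5 and 4 were called. The core was also present in 3 of 19 sensor genes, 4 of 13 signalling genes and 5 of 19 MHC class I genes. Of these 2, 2 and 0 were called. Of the genes called higher 5.85% had it and of those called lower 3.70%. A match describes the letters only and shows neither binding nor regulation.

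The windows of 5 genes that rose are shown, 1 each from the ISG15, IFIT, OAS, p200 and guanylate-binding protein families, to show where the core stands. They run 5′ to 3′ on the strand of the gene, with every match of the core in capitals, overlapping matches as 1 run. They cover chr4:156200769-156201068 (minus strand), chr19:34640639-34640938 (plus strand), chr5:120907476-120907775 (minus strand), chr1:173912997-173913296 (minus strand) and chr3:142559794-142560093 (plus strand).
Isg15: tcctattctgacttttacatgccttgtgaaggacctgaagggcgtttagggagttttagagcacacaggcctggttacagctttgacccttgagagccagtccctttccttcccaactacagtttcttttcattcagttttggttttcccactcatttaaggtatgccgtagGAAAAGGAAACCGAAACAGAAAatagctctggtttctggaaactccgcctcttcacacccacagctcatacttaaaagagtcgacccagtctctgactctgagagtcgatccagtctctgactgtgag
Ifit1: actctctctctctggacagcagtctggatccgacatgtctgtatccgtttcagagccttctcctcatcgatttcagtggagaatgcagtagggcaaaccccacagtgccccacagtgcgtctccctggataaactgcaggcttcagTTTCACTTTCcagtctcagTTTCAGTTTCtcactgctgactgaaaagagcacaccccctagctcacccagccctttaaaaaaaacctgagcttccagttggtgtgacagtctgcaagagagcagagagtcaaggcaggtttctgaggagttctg
Oas1a: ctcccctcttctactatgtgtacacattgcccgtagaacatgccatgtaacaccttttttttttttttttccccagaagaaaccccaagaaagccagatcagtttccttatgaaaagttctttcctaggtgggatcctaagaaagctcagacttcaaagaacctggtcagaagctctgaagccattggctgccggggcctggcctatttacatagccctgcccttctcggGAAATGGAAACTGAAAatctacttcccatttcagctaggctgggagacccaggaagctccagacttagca
Ifi211: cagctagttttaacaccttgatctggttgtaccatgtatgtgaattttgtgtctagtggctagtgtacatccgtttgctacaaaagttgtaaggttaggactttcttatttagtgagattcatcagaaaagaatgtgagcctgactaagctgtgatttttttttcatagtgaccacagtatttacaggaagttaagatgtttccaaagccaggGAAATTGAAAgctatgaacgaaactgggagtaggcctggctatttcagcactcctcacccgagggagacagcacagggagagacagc
Gbp3: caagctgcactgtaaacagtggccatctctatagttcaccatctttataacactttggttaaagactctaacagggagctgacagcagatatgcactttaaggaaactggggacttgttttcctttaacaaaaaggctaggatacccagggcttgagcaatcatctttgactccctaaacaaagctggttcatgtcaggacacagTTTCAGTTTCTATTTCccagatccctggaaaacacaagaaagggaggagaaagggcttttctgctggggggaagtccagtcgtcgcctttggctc

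Genes of interferon induction are described first. Ifnb1, which encodes interferon-β, was found in every ACLYKO library, with 15, 28 and 24 reads (2.41, 3.11 and 3.31 TPM), and in no WT library. Against a floor of 3 reads per WT library its level was at least 7.90-fold higher in ACLYKO. Irf7, the factor that amplifies interferon transcription, stood at 9.71, 21.1 and 16.8 TPM in ACLYKO, against 0.0646, 0.047 and 0.0735 TPM in WT (GeneID 54123, chromosome 7, 141263183 to 141266499, minus strand). The lowest ACLYKO library was above the highest WT library by a wide margin (log2 change 3.93 ± 0.22, limma adjusted p = 3.19e-08). Ifih1 was at 93.2, 78.5 and 68.9 TPM in ACLYKO, against 12.1, 8.84 and 8.77 TPM in WT (log2 change 2.90 ± 0.25, limma adjusted p = 2.56e-06), Zbp1, a sensor of Z-form nucleic acid, at 33.9, 32.7 and 31.9 TPM in ACLYKO, against 4.89, 3.80 and 4.59 TPM in WT (log2 change 2.65 ± 0.16), and Cgas at 9.39, 6.34 and 5.27 TPM in ACLYKO, against 3.54, 2.33 and 2.67 TPM in WT (log2 change 1.04 ± 0.18). Of 24 tested genes of sensing and induction, 10 were called higher and 1 lower (median log2 change 0.38), and 12 and 1 without ACLYKO replicate 1 (median 0.52). The exception was Ikbke, a kinase upstream of IRF3 and IRF7, at 15.2, 16.9 and 14.1 TPM in ACLYKO, against 41.3, 22.8 and 22.1 TPM in WT (limma adjusted p = 0.0267).

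Signalling genes rose in part. Irf9 stood at 52.4, 28.0 and 27.4 TPM in ACLYKO, against 14.4, 12.3 and 14.7 TPM in WT, with ACLYKO replicate 1 the highest (log2 change 1.26 ± 0.20, limma adjusted p = 0.000461). Stat2 rose little, by 0.52 on the log2 scale, and was not called without ACLYKO replicate 1 (limma adjusted p = 0.0615). Usp18, a feedback inhibitor of the type I receptor, stood at 0.488, 3.00 and 2.64 TPM in ACLYKO, against 0, 0 and 0.0803 TPM in WT, where it was almost absent. Ifngr2, a chain of the interferon-γ receptor, fell, at 11.1, 16.2 and 16.5 TPM in ACLYKO, against 43.4, 26.1 and 29.4 TPM in WT (log2 change -1.11 ± 0.20, limma adjusted p = 0.00122). Over the list 5 of 16 tested members were higher and 1 lower (median log2 change 0.37), and 5 and 1 without ACLYKO replicate 1, where the median was 0.17.

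Most effector genes rose. Of 36 tested, 24 were called higher and 0 lower, with a median log2 change of 1.23, and 27 and 0 without ACLYKO replicate 1 (median 1.30). The groups of Ifit1, Rsad2, Ifi44, Isg15 and Oas1a did not overlap. Ifit1, which binds foreign RNA caps, had 4.87, 4.44 and 3.55 TPM in ACLYKO, against 0.19, 0.172 and 0.0539 TPM in WT (log2 change 2.21 ± 0.11, limma adjusted p = 1.25e-08). Rsad2, which encodes viperin, had 3.53, 2.46 and 2.19 TPM in ACLYKO, against 0.033, 0.024 and 0 TPM in WT (log2 change 1.85 ± 0.11), and Ifi44 had 3.85, 6.28 and 6.02 TPM in ACLYKO, against 0, 0.0318 and 0.0249 TPM in WT (log2 change 2.62 ± 0.14). Isg15, a ubiquitin-like modifier, had 23.9, 132 and 154 TPM in ACLYKO, against 1.98, 3.84 and 4.61 TPM in WT. ACLYKO replicate 1 lay well below the other ACLYKO libraries, and the change was 4.21 with that library and 5.05 without it. Bst2, Ifi35 and Ifi27l2a, chosen after their values were seen, were called without that library but not with it, and in it they lay below the WT range. Oas1a, of the family that activates RNase L, was chosen for its promoter and had 1.17, 5.62 and 4.44 TPM in ACLYKO, against 0.124, 0.181 and 0 TPM in WT (log2 change 1.96 ± 0.40, limma adjusted p = 0.00325), but it has close copies among which reads could be split.

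**Figure D3:**
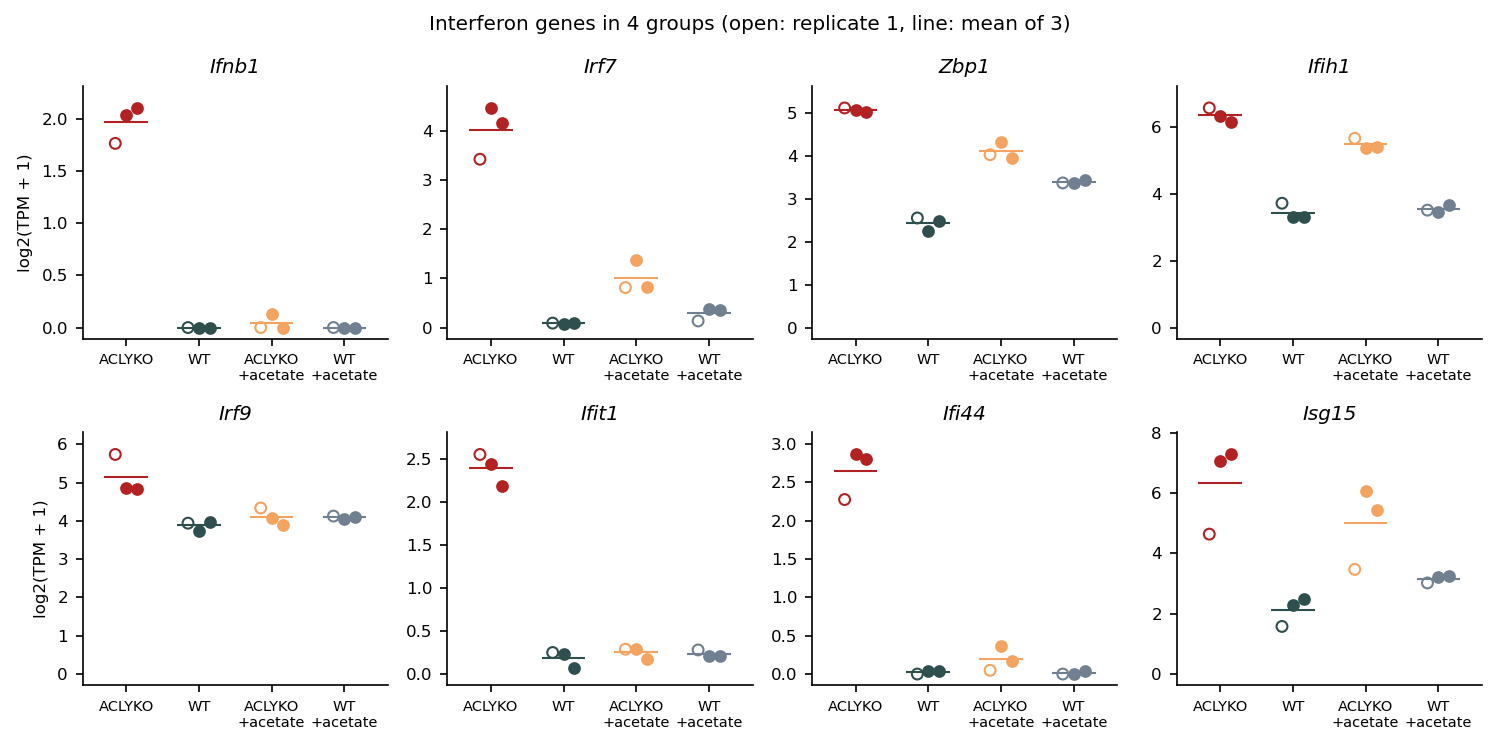
Levels of 8 interferon genes as log2(TPM + 1) in ACLYKO and WT without acetate and in ACLYKO and WT with acetate, 3 libraries each (open circles replicate 1, lines group means). Without acetate all ACLYKO libraries lie above all WT libraries in every panel, and with acetate the ACLYKO levels of Ifnb1, Ifit1 and Ifi44 lie near those of WT.

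The p200 family, DNA-binding proteins encoded side by side on chromosome 1, had 7 rises and 0 falls among 9 tested genes, with a median log2 change of 2.94, and 6 and 0 without ACLYKO replicate 1 (median 2.35). Ifi211 stood at 64.1, 15.4 and 14.0 TPM in ACLYKO, against 0.779, 0.283 and 0.443 TPM in WT (log2 change 4.08 ± 0.40, limma adjusted p = 8.3e-06) and Mndal at 38.8, 6.84 and 6.94 TPM in ACLYKO, against 0.659, 0.295 and 0.259 TPM in WT (log2 change 3.28 ± 0.45, limma adjusted p = 0.000163). ACLYKO replicate 1 was several times the other ACLYKO libraries in both, and without it the changes were 3.40 and 2.50. Ifi203, Ifi204 and Ifi205 also had ACLYKO replicate 1 as the highest library, with log2 changes of 3.27, 2.98 and 2.94. Ifi202b had 52, 7 and 7 reads in ACLYKO and 0 in WT. These genes are near-identical in parts, so that single members are uncertain, and the deposited background label differs between the groups as given above.

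Guanylate-binding proteins and immunity-related GTPases, which attack vacuoles of pathogens, together had 10 rises and 0 falls among 15 tested genes (median log2 change 0.74), and 10 and 0 without ACLYKO replicate 1 (median 0.68). The rises were 8 of 9 tested Gbp genes and 2 of the other 6. Gbp2 was at 107, 62.3 and 54.9 TPM in ACLYKO, against 27.7, 21.9 and 24.2 TPM in WT (log2 change 1.51 ± 0.28, limma adjusted p = 0.00177) and Gbp3 at 6.69, 3.66 and 3.01 TPM in ACLYKO, against 1.02, 0.457 and 0.649 TPM in WT (log2 change 1.63 ± 0.21). This family too has close copies. MHC class I presentation had 6 rises and 1 fall among 24 tested genes (median log2 change 0.41). Without ACLYKO replicate 1 the counts were 13 and 1 and the median was 0.80. The class I heavy chain gene H2-D1, chosen after its values were seen, had 439, 1347 and 1106 TPM in ACLYKO, against 533, 463 and 503 TPM in WT, so that ACLYKO replicate 1 lay below WT and the other ACLYKO libraries above it. Psme2, a subunit of the proteasome activator PA28, and Psmb9, a subunit of the immunoproteasome, rose by 0.85 and 1.29 (limma adjusted p = 0.000419 and 0.0133).

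Genes of MHC class II diverged. Cd74, which encodes the invariant chain, was at 211, 461 and 592 TPM in ACLYKO, against 36.9, 29.5 and 34.5 TPM in WT (log2 change 3.49 ± 0.32, limma adjusted p = 4.97e-06). H2-Ab1, which encodes a β chain of the class II molecule, was at 2.18, 3.23 and 3.83 TPM in ACLYKO, against 30.7, 38.1 and 35.7 TPM in WT (log2 change -3.15 ± 0.20, limma adjusted p = 1.37e-07). Neither pair of groups overlapped. Ctss, the protease that cleaves the invariant chain, rose with Cd74, at 102, 160.4 and 148 TPM in ACLYKO, against 58.1, 52.1 and 50.7 TPM in WT (log2 change 1.31 ± 0.16). Ciita, the class II master regulator, had 1, 3 and 3 reads in ACLYKO and 0 in WT, which is at or below the floor of 3 reads. Of the 10 tested genes of the list 2 were higher and 1 lower, and 3 and 1 without ACLYKO replicate 1.

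Lipid genes split by branch. Genes of cholesterol synthesis and uptake had 10 rises and 2 falls among 27 tested genes (median log2 change 0.52), and 19 and 1 without ACLYKO replicate 1 (median 0.60). Acat2, whose product condenses acetyl-CoA at the entry to the pathway, stood at 11.5, 13.3 and 16.9 TPM in ACLYKO, against 5.36, 6.04 and 5.72 TPM in WT (log2 change 1.14 ± 0.17, limma adjusted p = 0.000284). The exceptions were Mvd, an enzyme of the mevalonate pathway, at 7.82, 18.6 and 13.9 TPM in ACLYKO, against 28.0, 21.1 and 23 TPM in WT, and Npc2, a lysosomal cholesterol carrier, at 65.3, 193 and 189 TPM in ACLYKO, against 240.1, 315 and 326 TPM in WT (limma adjusted p = 0.022 and 0.0266). Mvd was not called without ACLYKO replicate 1 (limma adjusted p = 0.0519). The sterol element core TCACNCCAC was found in 1 of 19 windows of this list and in 1.44% of all genes with a window. The gene of this list was Hmgcs1, which was not called with all libraries (limma adjusted p = 0.108, and 0.0382 without ACLYKO replicate 1). Of tested genes with a window 1.30% had the core, of those called higher 0.66% and of those called lower 2.09%.

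Targets of LXR, the receptor that senses sterol excess, had 1 rise and 4 falls among 9 tested genes (median log2 change -0.70), and 2 and 4 without ACLYKO replicate 1 (median -0.48). Abca1, which exports cholesterol, was at 7.13, 9.58 and 8.50 TPM in ACLYKO and 19.2, 16.2 and 16.9 TPM in WT (log2 change -0.98 ± 0.15) and Smpdl3a at 0.828, 2.20 and 2.20 TPM in ACLYKO and 3.63, 4.92 and 5.99 TPM in WT (log2 change -1.12 ± 0.26). Mylip, which encodes a ubiquitin ligase, rose, at 5.97, 5.28 and 5.35 TPM in ACLYKO, against 3.35, 2.44 and 2.53 TPM in WT. Plin2, the coat protein of lipid droplets, was at 0.627, 1.90 and 1.91 TPM in ACLYKO, against 15.1, 18.1 and 23.04 TPM in WT (log2 change -3.02 ± 0.21, limma adjusted p = 2.76e-07) and was the only fall among 24 tested genes of droplets and fatty acid oxidation, where Cpt1a, Dgat2 and Acadl rose (Acadl not called without ACLYKO replicate 1, limma adjusted p = 0.108). Without that replicate this list had 5 higher and 1 lower. Its share called, 16.7% and 25.0% without that replicate, was not above the 19.1% and 25.3% of all tested genes.

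Fatty acid synthesis genes had 6 rises and 3 falls among 22 tested genes (median log2 change 0.13), and 10 and 2 without ACLYKO replicate 1 (median 0.26). The desaturases and elongases divided. Scd1 and Scd2, which place the first double bond, were at 4.01, 5.13 and 4.66 TPM in ACLYKO and 13.0, 9.75 and 12.0 TPM in WT and at 62.0, 129.7 and 120.0 TPM in ACLYKO and 171, 203 and 221 TPM in WT (limma adjusted p = 0.00365 and 0.0194, the second 0.0512 without ACLYKO replicate 1). Elovl6, which lengthens saturated chains, had 1.16, 0.777 and 0.679 TPM in ACLYKO and 2.52, 2.56 and 2.15 TPM in WT (log2 change -0.87 ± 0.14, limma adjusted p = 0.000458). Fads2 and Elovl5, which act on polyunsaturated chains, had 13.8, 6.74 and 5.81 TPM in ACLYKO and 2.19, 1.12 and 1.71 TPM in WT and 52.5, 75.4 and 65.8 TPM in ACLYKO and 38.4, 26.6 and 30.1 TPM in WT, and Elovl7 had 5.76, 5.66 and 6.98 TPM in ACLYKO and 0.634, 0.856 and 1.11 TPM in WT (log2 changes 1.80 ± 0.29, 1.00 ± 0.18 and 1.94 ± 0.25). Acaca and Fasn, which carry acetyl-CoA into fatty acids, were not called (limma adjusted p = 0.37 and 0.571).

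The list for citrate and acetyl-CoA supply holds enzymes and transporters but not Acly itself, which fell as given above. Of its 26 tested genes 8 were higher and 0 lower (median log2 change 0.06), and 9 and 0 without ACLYKO replicate 1 (median 0.24). Acss2, the acetate-dependent source of cytosolic acetyl-CoA, stood at 4.71, 8.13 and 6.72 TPM in ACLYKO, against 3.18, 2.28 and 2.99 TPM in WT (log2 change 0.96 ± 0.19, limma adjusted p = 0.00263). Me2, a malic enzyme, stood at 31.6, 31.0 and 29.9 TPM in ACLYKO, against 15.7, 14.0 and 15.4 TPM in WT (log2 change 0.99 ± 0.13, limma adjusted p = 0.000124), and Pdk1, which inhibits pyruvate dehydrogenase, at 13.9, 17.3 and 16.1 TPM in ACLYKO, against 8.94, 7.40 and 8.81 TPM in WT (log2 change 0.84 ± 0.14). Slc25a1, the mitochondrial citrate carrier, was not called with all libraries (limma adjusted p = 0.778, and 0.0479 without ACLYKO replicate 1), nor was Acss1, the mitochondrial acetyl-CoA synthetase (limma adjusted p = 0.909). Of 32 tested writers, erasers and readers of histone acetylation, 4 were higher and 1 lower (median log2 change -0.0037), and 8 and 1 without ACLYKO replicate 1 (median 0.04). Among those called higher with all libraries were Hat1 and Hdac6 at log2 changes of 0.70 and 1.09. The share of this list called, 15.6% and 28.1% without ACLYKO replicate 1, was near the 19.1% and 25.3% of all tested genes. The linker histone gene H1f0 was at 6.09, 12.7 and 11.4 TPM in ACLYKO, against 48.8, 42.9 and 38.9 TPM in WT (log2 change -2.06 ± 0.22, limma adjusted p = 2.05e-05).

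**Figure D4:**
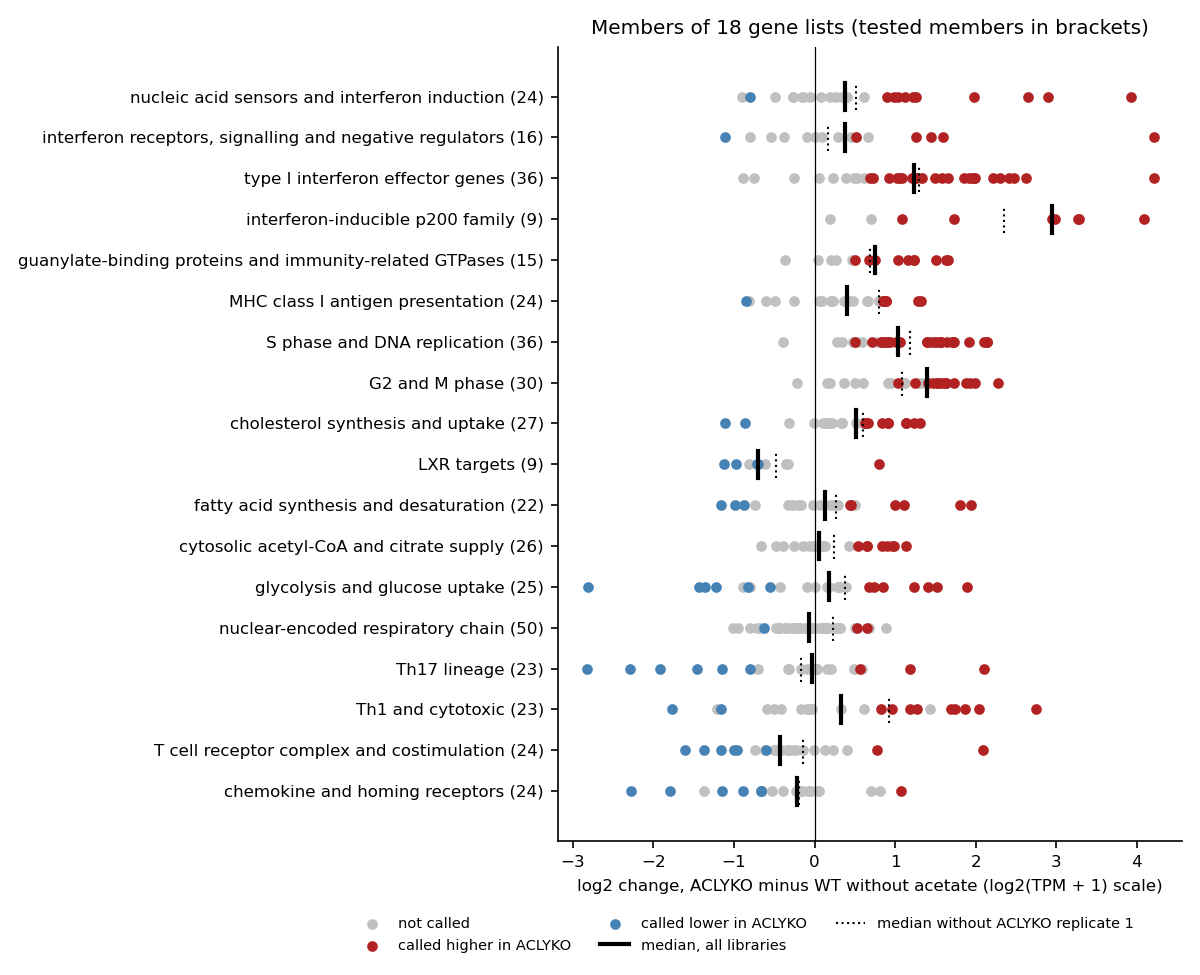
Log2 change of each tested member (dot) of 18 gene lists, ACLYKO minus WT without acetate, red where called higher, blue where called lower and grey where not called. Solid bars are list medians with all 6 libraries and dotted bars those without ACLYKO replicate 1, which lie higher in S phase (1.19 against 1.04) and lower in the p200 family (2.35 against 2.94).

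Glycolysis was divided too, with 7 of 25 tested genes higher and 6 lower (median log2 change 0.18), and 11 and 5 without ACLYKO replicate 1 (median 0.37). Aldoc, an aldolase, was at 1.42, 4.17 and 2.74 TPM in ACLYKO, against 24.6, 24.7 and 23.7 TPM in WT (log2 change -2.81 ± 0.24, limma adjusted p = 1.97e-06). Pgk1 was at 301, 811 and 787 TPM in ACLYKO, against 1476, 1652 and 1555 TPM in WT and Gpi1 at 104, 269 and 224 TPM in ACLYKO, against 443, 426 and 429 TPM in WT (log2 changes -1.43 ± 0.27 and -1.23 ± 0.25, limma adjusted p = 0.00197 and 0.00319). In both the ACLYKO replicate 1 was far below the rest. Ldhb, the lactate dehydrogenase chain that favours lactate use, rose, at 129.5, 65.6 and 61.6 TPM in ACLYKO, against 20.3, 19.6 and 23.3 TPM in WT, as did Pfkl, a subunit of phosphofructokinase, at 47.4, 113 and 89.5 TPM in ACLYKO, against 34.9, 25.0 and 27.7 TPM in WT (log2 changes 1.89 ± 0.26 and 1.41 ± 0.25). The glucose transporter gene Slc2a1 (GLUT1), chosen after its values were seen, was called without ACLYKO replicate 1 (log2 change 0.77, limma adjusted p = 8.28e-05) but not with it (limma adjusted p = 0.476). HIF targets outside glycolysis had 4 rises and 2 falls among 20 tested genes, and 6 and 3 without ACLYKO replicate 1.

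Upp1, uridine phosphorylase, which releases ribose from uridine, had the largest fall after Acly among the genes that passed the rule for naming (GeneID 22271, chromosome 11, 9118008 to 9136170, plus strand). It stood at 0.924, 3.69 and 3.42 TPM in ACLYKO, against 69.6, 76.5 and 66.9 TPM in WT (log2 change -4.39 ± 0.26, limma adjusted p = 7.23e-08) and was the only fall among 24 tested genes of pyrimidine use. Without ACLYKO replicate 1 this list also had 7 rises and 1 fall. The 7 rises with all libraries included Dck, which salvages deoxycytidine, at 21.3, 43.5 and 45.1 TPM in ACLYKO, against 9.98, 9.98 and 10.4 TPM in WT, and Rrm1, a subunit of ribonucleotide reductase, at 209, 150.2 and 141 TPM in ACLYKO, against 75.2, 37.0 and 44.1 TPM in WT (log2 changes 1.68 ± 0.27 and 1.70 ± 0.31).

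Most genes of DNA replication were higher. Of 36 tested S phase genes 27 were called higher and 0 lower (median log2 change 1.04), and 34 and 0 without ACLYKO replicate 1 (median 1.19). Ccne2, a cyclin of S phase entry, had 108, 53.6 and 47.8 TPM in ACLYKO, against 19.8, 16.8 and 13.7 TPM in WT and Pcna, the replication clamp, had 442, 503 and 529 TPM in ACLYKO, against 255, 248 and 285 TPM in WT (log2 changes 1.91 ± 0.26 and 0.90 ± 0.14). An E2F site written TTTCCCGC or TTTGGCGC stood in 5 and 7 of 30 windows of this list, against 2.48% and 1.14% of tested genes with a window, and in 0 of 24 windows of the mitotic list. Genes of G2 and mitosis had 14 rises and 0 falls among 30 tested genes (median log2 change 1.40), and 11 and 0 without ACLYKO replicate 1 (median 1.09). Birc5, a mitotic survivin, had 43.4, 18.3 and 21.9 TPM in ACLYKO, against 7.72, 4.31 and 5.70 TPM in WT and Aurkb 23.6, 27.2 and 28.6 TPM in ACLYKO, against 10.7, 6.68 and 8.49 TPM in WT. Mki67, the proliferation marker, was at 242, 58.1 and 43.4 TPM in ACLYKO, against 47.6, 7.96 and 11.7 TPM in WT. WT replicate 1 lay above ACLYKO replicate 3 for Mki67, and this gene was not called without ACLYKO replicate 1 (limma adjusted p = 0.122).

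Regulators of the cycle and of survival moved as well. Cdkn1a, the p21 inhibitor, was at 97.4, 275 and 276 TPM in ACLYKO, against 338, 577 and 510.5 TPM in WT (limma adjusted p = 0.0141) and Ccnd2, a D-type cyclin, at 204, 376 and 327 TPM in ACLYKO, against 439, 475 and 456 TPM in WT (limma adjusted p = 0.0212). Cdkn2a, which encodes p16 and p19ARF, had 8, 9 and 19 reads in ACLYKO and 0 in WT, at least 4.39-fold higher over the floor of 3 reads per library. Rb1 and Rbl1, which restrain E2F, rose by 1.09 and 1.20, while Rbl2 of the same list fell (log2 change -0.52, limma adjusted p = 0.0402). Of 16 tested inhibitors and D cyclins 6 were higher and 3 lower, and 7 and 3 without ACLYKO replicate 1. Bbc3, which encodes the pro-apoptotic protein PUMA, was at 1.77, 21.3 and 17.0 TPM in ACLYKO, against 32.6, 44.7 and 40.0 TPM in WT, and Bak1 and Bid were lower too (limma adjusted p = 0.0179, 0.0177 and 0.00708). Targets of p53 had 1 rise and 4 falls among 20 tested genes, and 1 and 5 without ACLYKO replicate 1. Among the falls was Tnfrsf10b, a death receptor, at 20.4, 36.1 and 29.7 TPM in ACLYKO, against 52.1, 60.6 and 57.3 TPM in WT.

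Several large changes lay outside the lists. Serpin genes moved in opposite directions. Serpini1, which encodes neuroserpin, stood at 17.0, 22.3 and 20.8 TPM in ACLYKO, against 1.18, 1.66 and 1.05 TPM in WT (log2 change 3.20 ± 0.15, limma adjusted p = 8.66e-09) and Serpinc1, antithrombin, at 6.61, 29.1 and 21.3 TPM in ACLYKO, against 0.723, 0.7 and 1.23 TPM in WT (log2 change 3.20 ± 0.37). Serpinf1, which encodes the factor PEDF, stood at 1.24, 2.86 and 2.70 TPM in ACLYKO, against 67.9, 55.6 and 48.9 TPM in WT (log2 change -4.19 ± 0.22, limma adjusted p = 2.62e-08). Vcam1, a ligand of α4 integrins, was at 11.2, 11.5 and 9.82 TPM in ACLYKO, against 0.147, 0.454 and 0.544 TPM in WT (log2 change 3.11 ± 0.17), and Il1rn, which encodes the antagonist of the interleukin-1 receptor, at 53.5, 42.4 and 34.2 TPM in ACLYKO, against 8.55, 3.27 and 3.67 TPM in WT (log2 change 2.92 ± 0.28). The membrane protein gene Stom and the coiled-coil gene Ccdc122 rose by 2.97 and 3.26, the second with 74.9, 15.3 and 14.6 TPM in ACLYKO. Itga3, an integrin chain, was at 3.44, 6.42 and 6.30 TPM in ACLYKO, against 40.3, 37.1 and 41.4 TPM in WT (log2 change -2.70 ± 0.21). Selenbp1, Adh1, Guca1a and Odaph fell to at most 1.59 TPM in any ACLYKO library, against 4.65 to 11.4 TPM in WT. Itpripl2 was at 2.18, 8.02 and 7.43 TPM in ACLYKO, against 39.3, 53.4 and 39.2 TPM in WT.

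The remaining lists are set against 19.1% of all tested genes called with all libraries and 25.3% without ACLYKO replicate 1. The unfolded protein response had 1 rise and 1 fall among 22 tested genes (9.1%, and 13.6% without that replicate). The nuclear-encoded respiratory chain had 2 and 1 of 50 (6.0% and 12.0%), and MYC with ribosome biogenesis 2 and 1 of 28 (10.7% and 10.7%). Amino acid transport and starvation, with 2 rises and 3 falls among 33 tested genes, was below the background with all libraries (15.2%) but above it without ACLYKO replicate 1, with 8 and 3 (33.3%). The same held for NRF2 targets, with 3 rises and 0 falls among 17 with all libraries (17.6%) and 8 and 0 without that replicate (47.1%). Myc itself was at 483, 665 and 545 TPM in ACLYKO, against 425, 302 and 348 TPM in WT (limma adjusted p = 0.0425). TGF-β signalling had 2 of 17 higher and 0 lower, and 3 and 1 without ACLYKO replicate 1. The share was above the background in both fits in the following lists. For AP-1 and related factors (23.1%, and 30.8% without ACLYKO replicate 1), regulatory T cell genes and naive and memory genes it stayed near the background. AP-1, EGR, NR4A and NFAT factors had 4 of 26 higher and 2 lower, and 7 and 1 without ACLYKO replicate 1, with Nr4a3 at a log2 change of 0.92 and Fosl1 at -1.19. JAK-STAT genes had 4 of 25 higher and 5 lower, regulatory T cell genes 2 of 19 and 3, naive and memory genes 2 of 20 and 3, and Th2 and Th9 genes 4 of 18 and 3. Without ACLYKO replicate 1 the counts were 5 and 4, 2 and 3, 3 and 3, and 6 and 3 for these lists in the same order. Klf2, a quiescence factor of T cells, rose at a low level, to 1.84, 3.82 and 3.34 TPM in ACLYKO, against 0.206, 0.25 and 0.117 TPM in WT, while Satb1, a chromatin organizer, was at 33.9, 26.1 and 25.1 TPM in ACLYKO, against 109, 60.8 and 69.3 TPM in WT.

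The same loss was compared in cultures with acetate, from other libraries. There 1925 genes (13.5%) were called, 1643 higher (11.5%) and 282 lower (1.98%). The split again depends on scaling: higher genes made up 85.4% of these calls on TPM as deposited, 62.0% with median-ratio scaling (1034 higher and 635 lower) and 58.6% with quantile normalization (1048 and 740). The median log2 change over all genes with acetate was 0.16 on TPM and -0.02 with median-ratio scaling. Of the genes called higher without acetate 974 were called higher with it as well (53.9% of the first list and 59.3% of the second), and of those called lower 185 (20.4% and 65.6%). The difference between the effects of ACLY loss without and with acetate was tested directly and called for 191 genes (1.34%). Some interferon genes were among the called ones, with 3 of 24 genes of sensing and induction and 9 of 36 effectors. The list of guanylate-binding proteins and immunity-related GTPases had 2 of 15 and the signalling genes 1 of 16. The p200 family had 0 of 9 and MHC class I presentation 0 of 24. Isg15 changed by 4.21 without and 1.83 with acetate, and its difference was not called (2.37, limma adjusted p = 0.334). Without acetate Irf7 changed by 3.93, and with acetate by 0.72, at 1.05 ± 0.483 TPM in ACLYKO, against 0.228 ± 0.114 TPM in WT in these cultures (difference 3.21, limma adjusted p = 9.85e-05). Ifit1 changed by 2.21 and 0.02 (difference adjusted p = 6.87e-06). Il10 was higher in ACLYKO without acetate, and with it at 259 ± 57.2 TPM in ACLYKO, against 377 ± 56.9 TPM in WT, where it was not called (difference 2.35, limma adjusted p = 0.00441).

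Other changes were of like size in both media, or their difference did not pass. For Il17a the change was -2.83 without and -1.46 with acetate, at 649.9 ± 100.3 TPM in ACLYKO, against 1792 ± 327 TPM in WT (difference adjusted p = 0.343), and for Il17f -1.46 and -2.43 (difference adjusted p = 0.202). Il23r changed by -2.29 and -2.46, Vcam1 by 3.11 and 2.96 and Acss2 by 0.96 and 0.93. S phase genes had 30 of 36 tested members higher with acetate and mitotic genes 30 of 30, and no member of either list had a called difference. Of 24 tested genes of the T cell receptor and costimulation list 5 had a called difference between the media. Cd28 changed by -1.17 without and -0.19 with acetate (difference -0.98, limma adjusted p = 0.0161) and Cd27 by -1.37 and 0.04 (difference -1.41, limma adjusted p = 0.0223).

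**Figure D5:**
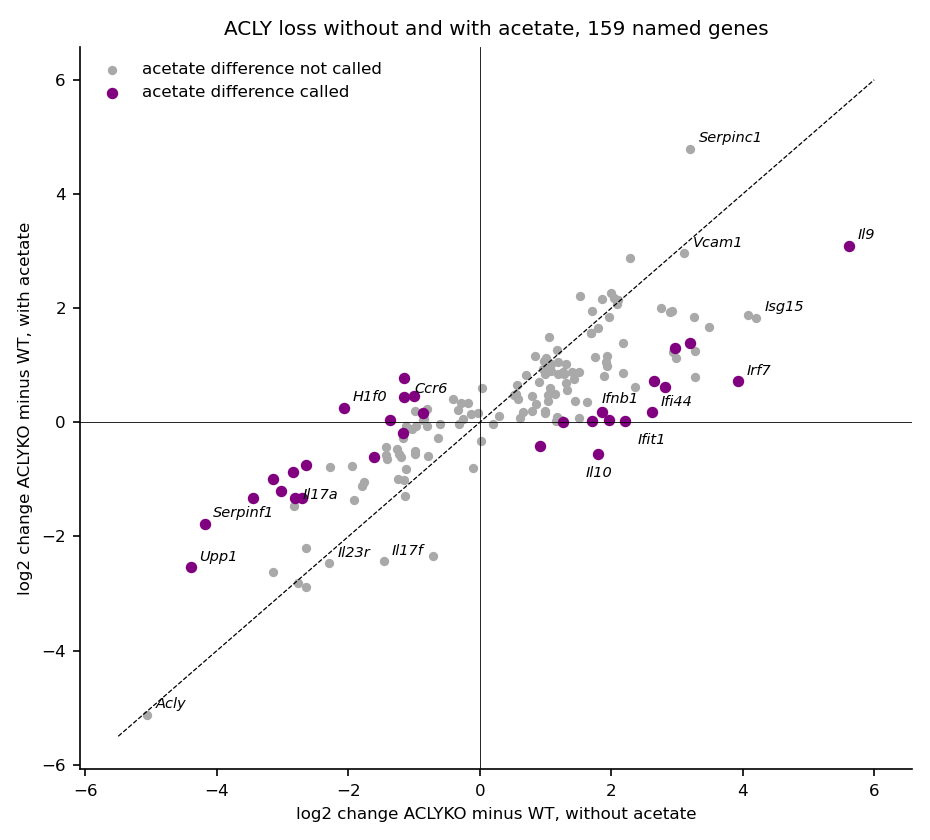
Log2 change ACLYKO minus WT without acetate (horizontal) and with acetate (vertical) for the tested genes named in the text, purple where the difference between both changes was called (limma adjusted p under 0.05). The interferon genes Ifnb1, Ifit1 and Ifi44 lie near 0 on the vertical axis, whereas Acly, Il23r and Vcam1 lie near the dashed line of equal change.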

How the data were processed

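RNA from cultured mouse Th17 cells was sequenced by the authors as polyA-selected, stranded, single-end libraries, per the labels' protocols. The deposited table holds 1 column of TPM (transcript abundance, reads per gene divided by the combined exon length and scaled to a constant library total) for each of 18 libraries and 45703 genes. The authors' notes name STAR 2.7.2b, featureCounts 1.6.4, bcl2fastq 2.20.0.422, cutadapt and DESeq2 and the build GRCm38.p6, per the submitters' processing notes, with no settings. The sources used here give neither the strand setting of the counting nor the treatment of near-identical genes. TPM times exon length gave whole reads for 100% of the values under 500 reads in every library (tolerance 0.01 reads), and depth was taken from these recovered reads. Depth is 18.7 to 30.1 M reads per library, and 1 read on a gene of 2000 exon bases is worth 0.0342 to 0.0719 TPM. Floors and read counts cover counting error only, since the reads carry no molecular identifiers.

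Genes with at least 1 TPM in at least 3 libraries were kept (14229, of which 11037 are protein-coding) and log2(TPM + 1) was fitted with limma 3.58.1 in R 4.3.3, with 1 mean for each of 6 groups and trend and robust moderation. All 18 libraries entered the fit and share its estimate of the spread. The p-values were adjusted over all tested genes. The script was tested on simulated data with known changes. Those data had the same dispersion for every gene and no library that stood apart. That test therefore does not show how the fit deals with a library such as ACLYKO replicate 1. The alternatives were another pseudocount, 2 other filters, 2 scalings, the compared libraries alone, library weights, moderation without robust, the replicate number as a block, a covariate, limma voom on the recovered reads, and each library left out in turn.

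Replicate numbers were checked for pairing through deviations from the group means. Those of same-numbered ACLYKO and WT libraries correlated over genes at 0.567, 0.285 and 0.577, all above the limit of 0.1. ACLYKO replicate 3 correlated with WT replicate 2 at 0.547, and ACLYKO replicate 2 with WT replicate 3 at 0.255. The other differently numbered pairs had negative correlations. Replicate 1 was thus set apart from the others, but numbers 2 and 3 were not told apart. The number served as a block only in the alternatives. What a number stands for is not given in the labels.

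The gene lists and the rule for naming genes were chosen with earlier results of these data known, so lists are described by counts and medians without a test. Named genes are Acly, the main Th17 and cytokine genes, up to 6 called members of each list by smallest adjusted p, members that define a list, and the 15 largest rises and 15 largest falls. Genes in these sets of largest rises and falls were called with and without ACLYKO replicate 1, had groups that did not overlap and a mean of at least 5 TPM (1010 rises and 484 falls were eligible). Genes with the largest acetate difference were also eligible. Any other gene named was chosen after its values were seen. Some genes that the rule names are not reported here. Promoter windows of 300 bases came from a RefSeq table of the same build.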

Additional observations from a re-analysis of the deposited data

Results flagged for a closer look

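The effect of ACLY loss differed between cultures without and with acetate, by limma's test of that difference, for 31 of the 159 tested genes named in the text. Each value is the log2 change ACLYKO minus WT without acetate minus the same with acetate. Every value below has a limma adjusted p of at most 0.0432, and causes were not tested.

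The interferon genes below all had a larger log2 change without acetate. The differences were 3.21 for Irf7, 2.44 for Ifi44, 2.19 for Ifit1, 1.93 for Ifnb1, 1.93 for Zbp1, 1.68 for Rsad2 and 1.25 for Irf9. Ch25h, which interferon also induces, differed by 2.20.

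Cytokine, receptor and lineage genes differed in both directions. Il9 differed by 2.52, with a larger log2 change without acetate. Il10 differed by 2.35, with a log2 change of 1.80 without acetate and -0.55 with it, where it was not called. Nr4a3 and Klf2 differed by 1.34 and 1.70. Receptor genes that fell without acetate gave differences of -1.58 for Ccr6, -1.45 for Themis, -1.41 for Cd27, -1.00 for Tnfrsf9 and -0.98 for Cd28. Stat4 differed by -1.94, being lower in ACLYKO without acetate (log2 change -1.16) and higher with it (0.78, limma adjusted p = 0.0319). Cxcl3 differed by -2.12 and H2-Ab1 by -2.15.

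Metabolic genes that fell further without acetate were Plin2 (-1.82), Upp1 (-1.86) and Aldoc (-1.48). Elovl6 differed by -1.03, with a log2 change of -0.87 without acetate and 0.15 with it, where it was not called (limma adjusted p = 0.524). The linker histone gene H1f0 differed by -2.32. Of the serpin genes Serpini1 differed by 1.81 and Serpinf1 by -2.41. Stom differed by 1.67, Guca1a by -1.91, Itpripl2 by -1.97 and Itga3 by -1.37.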

How the results depend on the processing

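Of the 140 named genes called in ACLYKO without acetate, no direction reversed under any alternative. Some alternatives could not reverse one, since they keep the log2 changes of the main fit. These are the fit of the 6 libraries alone, moderation without robust, the replicate block and the within-group axis. All 140 stayed called with a pseudocount of 0.1 and without robust moderation. They also did with the within-group axis as a covariate, which is the main axis of the deviations from the group means in these same data. This covariate leaves the log2 changes as they were and takes out only spread. Calls kept under it are therefore no check on them. Between 135 and 139 did with no filter, median-ratio scaling, quantile normalization, limma voom and the block of 18 libraries, 138 with library weights, and 51 in the fit of these 6 libraries alone. Leaving out 1 library kept 121 (without WT replicate 3) to 137.

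The 2715 calls became 342 in the fit of the 6 libraries alone, 8546 with arrayWeights and 6847 with the within-group axis, and 1778 to 3606 with 1 library left out. The lowest counts were those without WT replicate 3 (1778) and WT replicate 2 (1795), and the highest without ACLYKO replicate 1. As a block in the 6 libraries alone the replicate numbers left 0 calls by limma (3269 at an unadjusted p under 0.05). In the fit of 18 libraries the same block gave 3292. The blocked fit of the 6 libraries so ended the calls of all 140 named genes. The numbers do not tell the pairs of replicates 2 and 3 apart, as given above.

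With acetate 1925 calls became 3459 in the compared libraries alone, 10020 with arrayWeights and 5578 with the axis, and 1120 (without ACLYKO acetate replicate 1) to 1758 with 1 library left out. The 191 acetate differences became 94 with at least 5 TPM required, 56 in the compared libraries alone, 4007 with arrayWeights, 1573 with the axis and 47 with the block in the compared libraries alone, and 93 (without ACLYKO acetate replicate 3) to 386 (without ACLYKO replicate 1) with 1 library left out.

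Among genes not called, log2 changes turned positive and were called with arrayWeights for Acaca (0.23), Fasn (0.37) and Slc25a1 (0.43), and Slc25a1 ran over -0.45 to 0.38 with 1 library left out, the highest without ACLYKO replicate 1. The causes of these shifts were not tested. Groups of 3 libraries and the depth limit genes near 1 TPM, where a few reads set a value.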
